A study of Rattus norvegicus with 6 samples.

Results

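Glutathione synthesis and redox genes that the transcription factor NRF2 is known to drive were followed in the renal cortex of rats given p-nitroanisole. The set held 9 genes, Gclc, Gclm, Slc7a11, Gsr, Txnrd1, Prdx1, Srxn1, Nqo1 and Osgin1, taken as named members, with the inducible heme oxygenase and the glutathione transferases kept out. Probes were assigned to them through the accession that the array files give for each spot, which found 17 of the 61537 probes and all 9 of the 15645 genes that could be named. Of these, 14 probes of 8 genes were bright enough to be tested.

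The cortex came from male Sprague-Dawley (Crl:CD(SD)) rats bought at 5 weeks of age, 3 dosed with p-nitroanisole at 500 mg/kg/day and 3 with corn oil, the vehicle, both over 4 weeks. p-Nitroanisole is a nitrobenzene that carries a methoxy group. Each rat had its own 1-colour Agilent array, and the route of dosing is not given in the sources used here. Per array 40873 to 42600 probes stood well above background, no spot was saturated, and the small number of arrays limits the precision of every value. All 9 proximal tubule markers, Slc34a1 and Lrp2 among them, were well above background on all 6 arrays. Treated replicate 3 was alone on slide 2, while the other 5 arrays shared slide 1. There the vehicle arrays lay in row 1 and treated replicates 1 and 2 in row 2, so that row and treatment cannot be told apart within slide 1.

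NRF2 is held in the cytosol by KEAP1, which marks it for degradation. Electrophiles and oxidants react with cysteines of KEAP1, NRF2 then builds up, pairs with small MAF proteins in the nucleus and binds antioxidant response elements. Its targets rebuild the thiol pools of the cell: they import cystine and make glutathione, reduce oxidised glutathione and thioredoxin with NADPH, and reduce quinones. In the kidney the proximal tubule also breaks down filtered glutathione at its brush border and takes up the amino acids.

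The promoters were searched for the core of the antioxidant response element, spelled TGACNNNGC or on the other strand GCNNNGTCA, and for the related TPA response element, TGANTCA, which reads alike on both strands. RefSeq start sites on build GRCr8 gave windows of 300 bases, 250 before and 50 after the start, for 8 of the 9 genes, 2 of them for Txnrd1. The core was found in 3 genes, Gclm, Txnrd1 and Prdx1, and the TPA element in 2, Prdx1 and Srxn1. Among all 33469 rat promoter windows 12.1% held the core and 7.33% the TPA element. In Prdx1 the core overlapped 1 of 2 TPA elements. The windows with a match are shown because they are where the letters of the element stand, and that of Nqo1 because it had one of the largest differences and no match. Capitals mark the matched letters, and a match is not a binding site.
Gclm, chr2:213031885-213032184, plus strand: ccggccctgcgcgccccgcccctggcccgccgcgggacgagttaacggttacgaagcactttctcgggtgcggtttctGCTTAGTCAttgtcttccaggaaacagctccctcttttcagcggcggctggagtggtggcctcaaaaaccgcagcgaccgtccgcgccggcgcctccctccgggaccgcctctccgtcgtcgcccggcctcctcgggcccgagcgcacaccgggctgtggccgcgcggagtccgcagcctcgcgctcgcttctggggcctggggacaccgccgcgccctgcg
Txnrd1, chr7:22755855-22756154, minus strand: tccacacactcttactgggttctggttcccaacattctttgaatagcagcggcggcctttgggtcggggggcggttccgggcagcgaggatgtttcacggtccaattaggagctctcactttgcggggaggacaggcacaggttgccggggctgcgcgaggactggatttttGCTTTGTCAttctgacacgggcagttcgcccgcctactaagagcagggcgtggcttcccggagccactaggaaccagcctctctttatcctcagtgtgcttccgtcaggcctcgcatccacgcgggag
Prdx1, chr5:135383656-135383955, plus strand: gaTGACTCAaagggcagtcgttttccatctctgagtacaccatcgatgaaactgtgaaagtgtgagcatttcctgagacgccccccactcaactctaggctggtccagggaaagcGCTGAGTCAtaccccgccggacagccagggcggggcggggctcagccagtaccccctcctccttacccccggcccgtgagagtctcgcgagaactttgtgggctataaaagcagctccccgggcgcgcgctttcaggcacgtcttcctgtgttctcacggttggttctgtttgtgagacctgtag
Srxn1, chr3:161064562-161064861, plus strand: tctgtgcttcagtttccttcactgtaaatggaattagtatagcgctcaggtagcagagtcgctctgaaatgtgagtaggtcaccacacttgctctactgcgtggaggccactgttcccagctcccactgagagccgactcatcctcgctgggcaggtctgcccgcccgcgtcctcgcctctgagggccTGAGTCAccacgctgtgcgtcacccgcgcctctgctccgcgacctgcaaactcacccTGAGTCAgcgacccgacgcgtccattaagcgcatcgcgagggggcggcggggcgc
Nqo1, chr19:52220218-52220517, minus strand: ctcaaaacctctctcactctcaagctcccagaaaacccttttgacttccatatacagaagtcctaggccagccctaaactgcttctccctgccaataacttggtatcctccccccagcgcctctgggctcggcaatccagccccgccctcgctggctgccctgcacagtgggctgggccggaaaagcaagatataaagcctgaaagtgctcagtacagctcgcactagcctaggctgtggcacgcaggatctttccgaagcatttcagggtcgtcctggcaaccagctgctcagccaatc

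**Figure D1:**
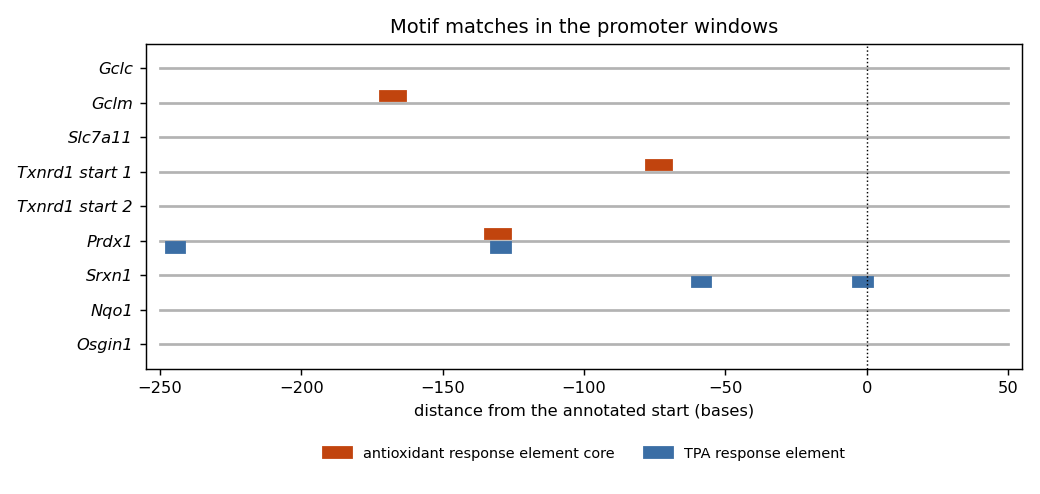
Positions of the antioxidant response element core (red) and the TPA response element (blue) in the promoter windows, in bases from the annotated start. The core lies in the windows of Gclm, of 1 Txnrd1 start and of Prdx1, and the Prdx1 core overlaps a TPA element.

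Among the genes with a core, the log2 difference was 1.17 for Gclm, 0.24 to 0.50 over the 4 probes of Txnrd1 and 0.22 for Prdx1. Srxn1, with TPA elements alone under these spellings, had 0.54. Its TPA element nearest the start is followed by GC, and so misses the core only by a G in place of the C. Nqo1, Osgin1 and Gclc, with neither element in their windows, had 0.96, 0.64 and 0.49. Since the values for Gclm, Gclc and Srxn1 move widely with single arrays or the background correction, as given below for each, no order was read from these matches. An element outside the window would not be seen here.

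All 8 tested genes were higher on average in treated cortex, and none passed the test. With limma, adjusted over 32196 rows, 0 of the 8 were called, against 0.0745% of all rows (0.0497% higher and 0.0248% lower). At an unadjusted p under 0.05, 3 of the 8 (Nqo1, Gsr and Osgin1) differed, all higher, against 13.4% of all rows in either direction and 7.69% in the upward one. The groups did not overlap, with every treated array above every vehicle array, for 4 genes, Nqo1, Gclm, Gsr and Osgin1, against 11.9% of all rows in that direction and 22.2% in either. The median log2 difference of the 8 was 0.51, against 0.01 over all rows. Gclm entered the test only because its treated arrays were bright enough, and the 7 genes well above background on all 6 arrays had a median of 0.49. Each difference below is treated minus vehicle on the log2 scale with its standard error from limma. Levels are scaled intensities, the processed intensity with the 75th percentile of its array set to 1000, and are comparable within a probe only.

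Glutathione is made from cysteine, glutamate and glycine, and its first step is catalysed by glutamate-cysteine ligase, of which Gclc encodes the catalytic and Gclm the modifier subunit. The Gclm probe (A_44_P1011898) was dim and read 32.6, 36.5 and 103 in treated rats, against 16.6, 20.7 and 31.1 in vehicle rats, where 2 of the 3 arrays were well above background. The groups did not overlap, but the highest vehicle array nearly reached the lowest treated one, and treated replicate 3 stood far above the other arrays. The difference was 1.17 (SE 0.49, n = 3 per group, 2.26-fold, 95% interval -0.03 to 2.38, limma adjusted p = 0.380). Within slide 1, without that array, it was 0.65 (limma adjusted p = 0.404), and with a normexp background correction it was 0.29 (limma adjusted p = 0.549).

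Gclc differed more among the vehicle rats than between the groups. Its probe A_64_P056846 read 40302, 51315 and 35829 in treated rats, against 15601, 26297 and 64781 in vehicle rats. The treated arrays lay close together inside the wide vehicle range, with vehicle replicate 1 the lowest and vehicle replicate 3 the highest of the 6. The second probe, A_44_P228874, gave the same order, with 1658, 1999 and 1509 in treated rats, against 553, 1038 and 2660.2 in vehicle rats. The standard deviation of the first probe was 0.26 in treated and 1.04 in vehicle rats on the log2 scale, the vehicle value lying at the 99.3 percentile of all rows, a point looked at after the values were seen. The difference was 0.49 (SE 0.51, 1.41-fold, 95% interval -0.77 to 1.75, limma adjusted p = 0.701). Leaving out vehicle replicate 1 gave 0.03 and leaving out vehicle replicate 3 gave 1.05, so that the vehicle animals decided its size.

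Slc7a11 encodes the cystine importer that supplies cysteine for this pathway, and it was too dim to be tested in the main fit. Its brightest probe (A_42_P576446) read 11.5, 28.9 and 36.9 in treated rats, against 18.5, 28.1 and 30.6 in vehicle rats, and was well above background on 1 treated and 2 vehicle arrays. The groups overlapped fully. The other 2 probes were not well above background on any array.

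Gsr encodes glutathione reductase, which returns oxidised glutathione to its reduced form with NADPH. Its probe (A_42_P519868) read 2213, 2543 and 2352 in treated rats, against 1856, 1840.0 and 1842 in vehicle rats. The vehicle arrays were almost equal, and all 3 treated arrays stood above them. The difference was small and had the narrowest error among the 8 genes, 0.36 (SE 0.07, 1.28-fold, 95% interval 0.18 to 0.54, limma adjusted p = 0.164). It lay between 0.31 and 0.41 when any 1 array was left out.

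Txnrd1, the cytosolic thioredoxin reductase, had 4 tested probes that did not give the same picture. The probe that stood for the gene, A_44_P456738, read 3058, 3269.7 and 2253 in treated rats, against 2407, 2248 and 2503 in vehicle rats. The groups overlapped because treated replicate 3 fell among the vehicle arrays, and the difference was 0.24 (SE 0.15, limma adjusted p = 0.529). Probe A_44_P134070 read 2859.8, 2714 and 2489 in treated rats, against 1806, 1873 and 2016 in vehicle rats, without overlap. Its difference was 0.50 (SE 0.08, 1.41-fold, limma adjusted p = 0.118 with every probe as a row). The other 2 probes, A_44_P554454 and A_64_P076475, did not overlap either and differed by 0.35 (SE 0.09) and 0.29 (SE 0.10). Within slide 1 the probe that stood for the gene differed by 0.41 (SE 0.08, limma adjusted p = 0.200), and without treated replicate 2 by 0.14.

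Prdx1 encodes a peroxiredoxin, which reduces hydrogen peroxide at the cost of thioredoxin. Its probe (A_44_P398167) read 47603, 55439 and 47601 in treated rats, against 44191, 52804 and 34294 in vehicle rats, and vehicle replicate 2 lay above 2 of the treated arrays. The difference was 0.22 (SE 0.17, 1.16-fold, limma adjusted p = 0.608), and leaving out vehicle replicate 3 gave 0.05, leaving out vehicle replicate 2 gave 0.36.

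Srxn1 encodes sulfiredoxin, which rescues overoxidised peroxiredoxins, and it was high in a single treated rat. Probe A_42_P842833 read 2965, 8551 and 3235 in treated rats, against 2881, 2288 and 4089 in vehicle rats. Treated replicate 2 exceeded all other arrays, and replicates 1 and 3 lay inside the vehicle range. Probe A_42_P703664 showed the same array on top, with 58.2, 114 and 62.0 in treated rats, against 47.8, 61.1 and 71.2 in vehicle rats. The difference of the first probe was 0.54 (SE 0.45, 1.45-fold, 95% interval -0.58 to 1.65, limma adjusted p = 0.635), and 0.05 without treated replicate 2.

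Nqo1 encodes the quinone reductase that is the classic reporter of NRF2 activity, and its 2 probes separated the groups. Probe A_64_P005208 read 281, 319 and 205 in treated rats, against 108, 149 and 155 in vehicle rats. Probe A_44_P476733, which is dimmer, read 82.0, 109 and 77.1 in treated rats, against 41.7, 41.3 and 41.6 in vehicle rats. No treated array fell into the vehicle range on either probe. The first probe differed by 0.96 (SE 0.21, 1.95-fold, 95% interval 0.44 to 1.49, limma adjusted p = 0.179) and the second by 1.09 (SE 0.14, 2.13-fold, limma adjusted p = 0.0783 with every probe as a row). The first probe lay between 0.80 and 1.14 when any 1 array was left out, and at 0.66 with the normexp background correction (limma adjusted p = 0.215).

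Osgin1, a growth inhibitor induced by oxidative stress, read 2466, 1759 and 1589 in treated rats (A_44_P529581), against 1082, 1138 and 1482 in vehicle rats. All treated arrays were higher, with treated replicate 1 well above the rest and treated replicate 3 close to vehicle replicate 3. The difference was 0.64 (SE 0.20, 1.56-fold, 95% interval 0.14 to 1.14, limma adjusted p = 0.287).

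**Figure D2:**
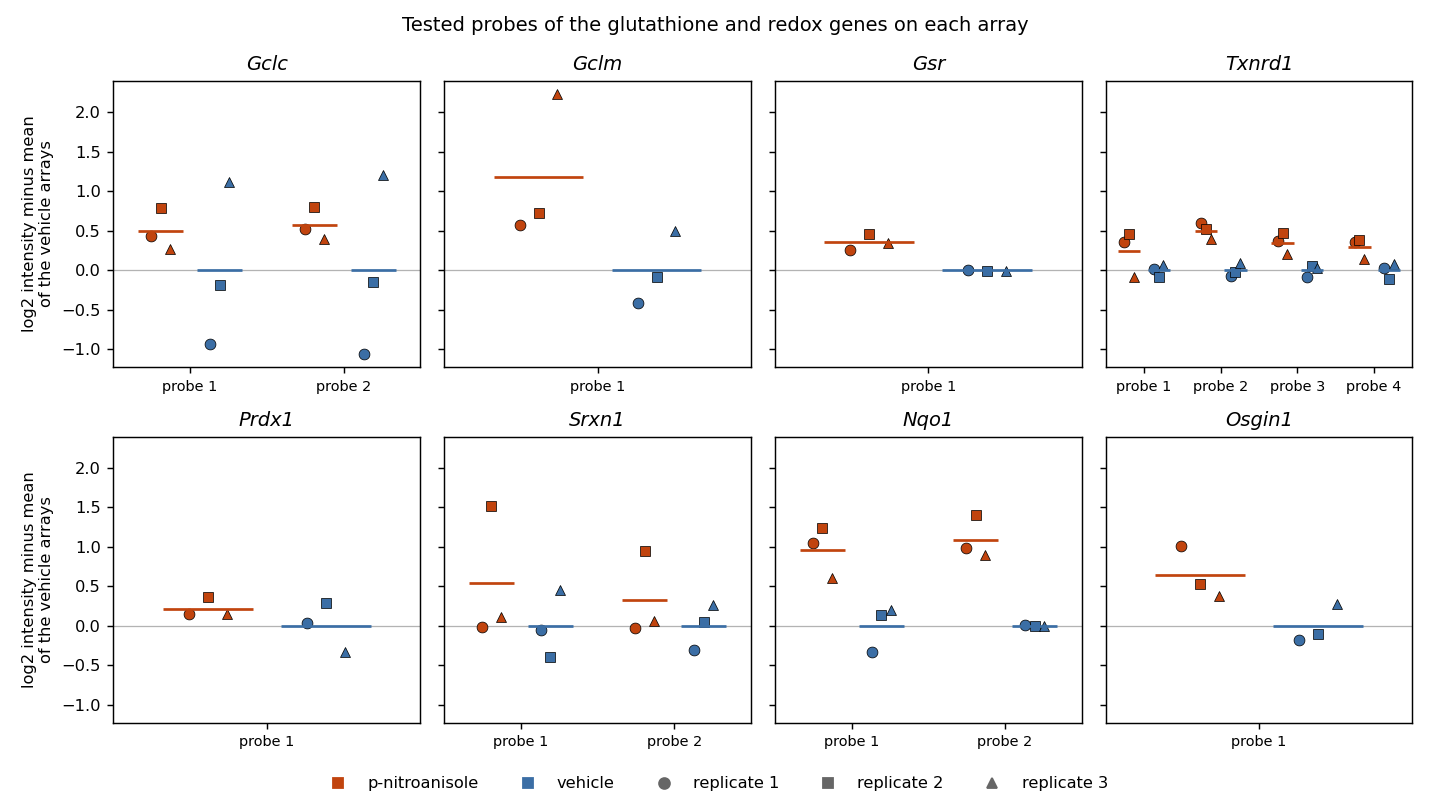
Values of the 14 tested probes on each array as log2 intensity minus the mean of the 3 vehicle arrays, with p-nitroanisole in red, vehicle in blue, a symbol for each replicate and a line at each group's mean. Probe 1 stands for the gene. Nqo1, Gsr, Osgin1, Gclm and the Txnrd1 probes other than probe 1 show no overlap. Gclc spreads most among vehicle rats, and a single treated rat stands out for Srxn1.

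**Figure D3:**
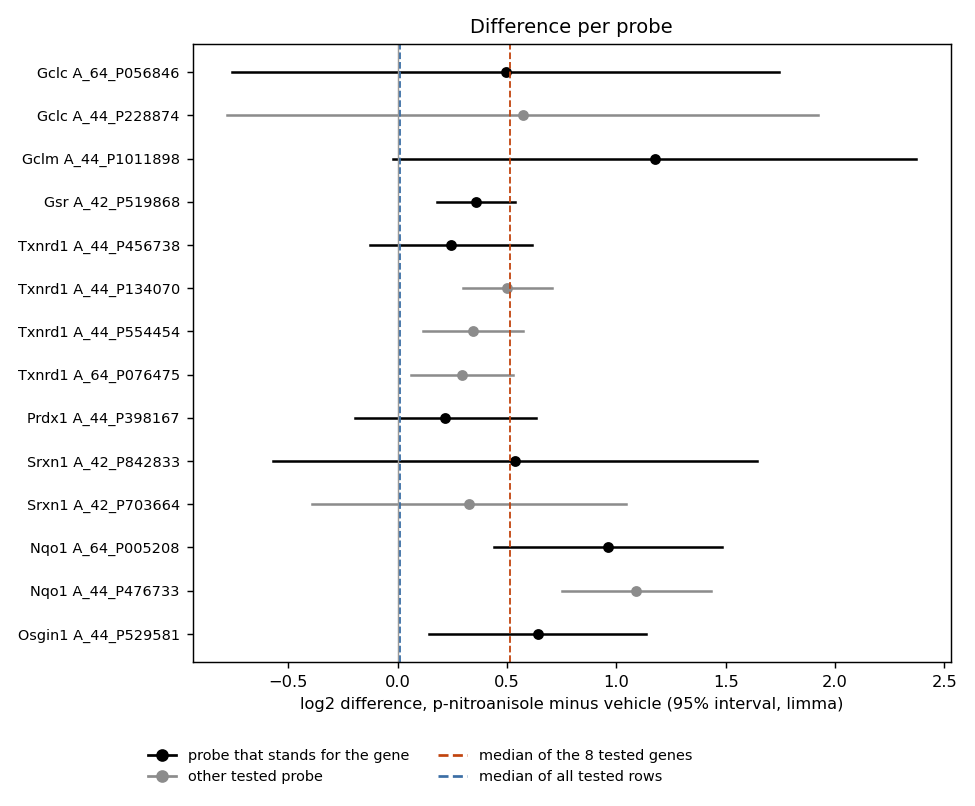
Difference of each tested probe on the log2 scale with its 95% interval, from the limma fit with every probe as a row. All 14 points lie above 0, and the intervals of both Gclc probes, both Srxn1 probes, Gclm, Prdx1 and the first Txnrd1 probe include 0.

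The rats within a group ranked alike for many of these genes. Among treated rats replicate 2 had the highest level for 6 of the 8 genes, as it did for 35.6% of all rows. Among vehicle rats replicate 3 had the highest level for 6 of the 8, as it did for 35% of all rows. Measured from the vehicle mean, the median over the 8 genes was 0.40, 0.63 and 0.31 on treated replicates 1, 2 and 3, against -0.12, -0.09 and 0.24 on vehicle replicates 1, 2 and 3. Vehicle replicate 3 was the highest of the vehicle rats and lay below all 3 treated rats on this median. The median difference between the groups was 0.33 without treated replicate 2 and 0.77 without vehicle replicate 3. Within slide 1 it was 0.63.

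**Figure D4:**
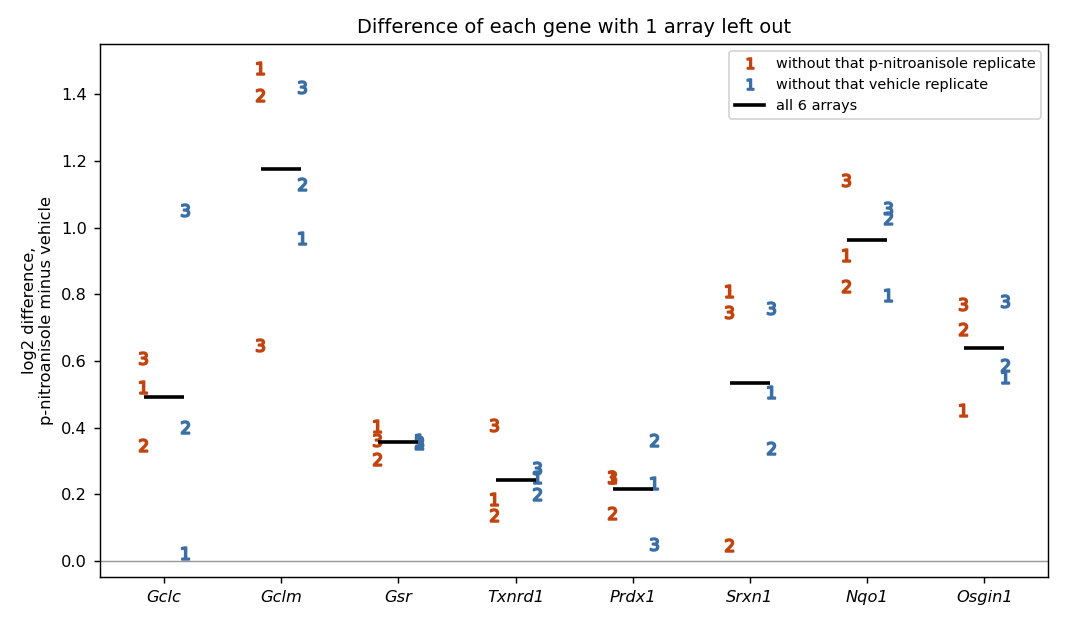
Difference of each gene on the log2 scale with all 6 arrays (bar) and with 1 array left out (digits name the replicate, red for p-nitroanisole, blue for vehicle). Gsr barely moves, Gclc runs from 0.03 to 1.05 with the vehicle array left out, and Srxn1 drops to 0.05 without treated replicate 2.

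Genes outside the set and the lists of related genes whose pattern was nearest to the mean of the 8, each scaled to unit variance over the 6 arrays, included Gmppb (Pearson r = 0.994), Mkrn1 (0.992), Pnkd (0.985) and Idh3a (0.985). The group difference enters these values, they were ranked over all other named genes tested, and none of these 4 was called, Gmppb differing by 0.42 (SE 0.12, limma adjusted p = 0.246).

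Related genes were taken from 6 lists, chosen with earlier results of these arrays known. Of 97 tested, 0 were called with limma over all rows, which is near the 0.0745% of all rows called. At an unadjusted p under 0.05, 21 were higher and 5 lower, against 7.69% and 5.76% of all rows. The groups did not overlap for 27 that were higher and 9 that were lower, against 11.9% and 10.3% of all rows. In all, 71.1% were higher on average, against 52.4% of all rows. Their median difference was 0.09, against 0.51 for the 8 genes of the set.

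Of 14 tested genes that regulate NRF2, 4 were higher and 0 lower at an unadjusted p under 0.05, against 7.69% and 5.76% of all rows. With limma over all rows 0 were called, against 0.0745% of all rows, and the median difference was 0.07. Nfe2l2, the gene of NRF2 itself, read 17825, 20011 and 17453 in treated rats, against 19289, 15962 and 16308 in vehicle rats, with overlap and a difference of 0.10 (SE 0.10, limma adjusted p = 0.690). Keap1, its inhibitor, differed by 0.01 (SE 0.09). The autophagy receptor gene Sqstm1, whose protein binds KEAP1, differed by 0.54 (SE 0.13), Bach1, which encodes a repressor that competes at the same elements, by 0.31 (SE 0.07), and the small MAF gene Mafk by 0.26 (SE 0.07). The groups did not overlap for these 3 genes, but limma adjusted p was between 0.197 and 0.257. Another small MAF gene, Maff, which is named after its values were seen, differed by 0.56 (SE 0.22, limma adjusted p = 0.356) with overlapping groups.

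Other genes of glutathione synthesis, breakdown and precursor supply were mixed, 11 of 19 tested being higher with a median of 0.13. At an unadjusted p under 0.05, 2 were higher and 1 lower, near the 7.69% and 5.76% of all rows. With limma over all rows 0 were called, against 0.0745% of all rows. Gss, glutathione synthetase, differed by 0.24 (SE 0.16) and Ggt1, the brush border transferase that starts glutathione breakdown, by 0.13 (SE 0.17), both with overlapping groups. Slc3a2, the partner chain of the cystine importer, differed by 0.05 (SE 0.07). Slc25a39, a carrier of glutathione into mitochondria, differed by 0.36 (SE 0.10) and Cth, which makes cysteine, by 0.25 (SE 0.09). Ggct, which cleaves gamma-glutamyl dipeptides, ran the other way at -0.27 (SE 0.09), and these last 3 did not overlap.

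Among 10 tested peroxidases and glutaredoxins the median was 0.06 and 0 were called with limma, against 0.0745% of all rows. At an unadjusted p under 0.05, 2 were higher and 2 lower, against 7.69% and 5.76% of all rows. Gpx2 stood apart. This glutathione peroxidase, best known from gut epithelium, read 17860.4, 32483 and 27320.2 in treated rats, against 6738, 10744 and 15483 in vehicle rats. All treated arrays were higher, with a difference of 1.27 (SE 0.36, 2.42-fold, limma adjusted p = 0.247). The cytosolic Gpx1 differed by 0.06 (SE 0.06) and the secreted Gpx3 by 0.06 (SE 0.08). Glrx, a cytosolic glutaredoxin, read 2276, 2088 and 2206 in treated rats, against 2836, 3168 and 2880.2 in vehicle rats, and differed by -0.43 (SE 0.08, limma adjusted p = 0.135). Gpx8, a peroxidase of the endoplasmic reticulum, differed by -0.27 (SE 0.08).

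In the thioredoxin system and peroxiredoxins 15 of 18 tested were higher, with a median of 0.07. Limma called 0 of them, against 0.0745% of all rows. At an unadjusted p under 0.05, 3 were higher and 0 lower, against 7.69% and 5.76% of all rows. These were Txnrd2, the mitochondrial reductase, at 0.34 (SE 0.08), Txn1, thioredoxin itself, at 0.28 (SE 0.07), and Prdx2, a peroxiredoxin abundant in red cells, at 0.21 (SE 0.06). Prdx6 differed by 0.11 (SE 0.06). Txnip, which encodes the inhibitor of thioredoxin, differed by 0.03 (SE 0.17).

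Both thiol systems run on NADPH, and 11 of 14 tested genes of its supply were higher, with a median of 0.10. Limma called 0 of them, against 0.0745% of all rows. At an unadjusted p under 0.05, 4 were higher and 0 lower, against 7.69% and 5.76% of all rows. Tkt, the transketolase of the pentose phosphate pathway, read 319776, 340774 and 294462 in treated rats, against 210347, 203934 and 204179 in vehicle rats. The groups lay far apart relative to their spread, with a difference of 0.62 (SE 0.08, 1.54-fold, limma adjusted p = 0.0804). Me1, malic enzyme, differed by 0.73 (SE 0.14) and Idh1, the cytosolic isocitrate dehydrogenase, by 0.71 (SE 0.20), again with no overlap. Taldo1, the transaldolase of the same pathway, differed by 0.13 (SE 0.08), with overlap.

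Among other oxidoreductases and antioxidant enzymes 15 of 22 tested were higher, with a median of 0.13. Limma called 0 of them, against 0.0745% of all rows. At an unadjusted p under 0.05, 6 were higher and 2 lower, against 7.69% and 5.76% of all rows. Pir, which encodes the iron-binding protein pirin, read 2126, 2044 and 1782 in treated rats, against 779, 983 and 874 in vehicle rats. The treated arrays all lay far above the vehicle arrays, with a difference of 1.18 (SE 0.12, 2.26-fold, limma adjusted p = 0.0559). Akr7a3, an aldehyde reductase that detoxifies aflatoxin dialdehyde, differed by 1.00 (SE 0.14, 2.00-fold, limma adjusted p = 0.102) and Ephx1, the microsomal epoxide hydrolase, by 0.72 (SE 0.13, limma adjusted p = 0.139), both without overlap. Nqo2, the relative of Nqo1, differed by -0.02 (SE 0.06).

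**Figure D5:**
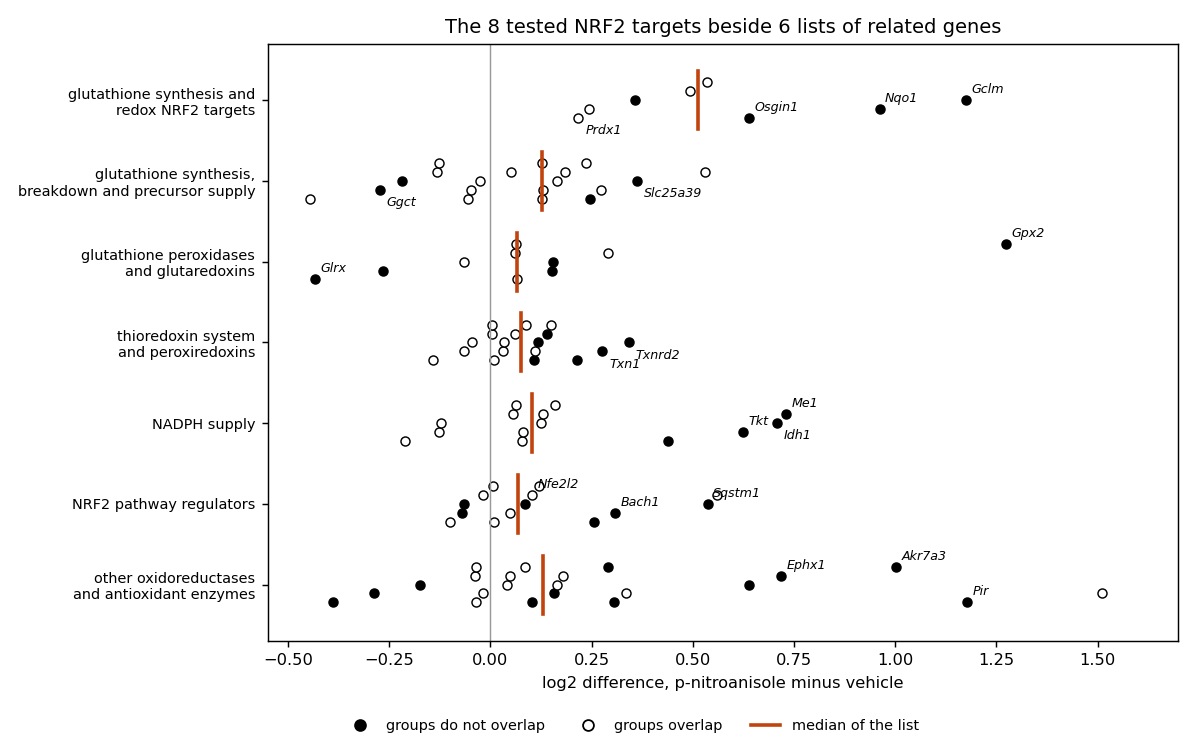
Difference of each tested gene on the log2 scale, for the 8 NRF2 targets of the set (top row) and 6 lists of related genes, filled where the groups do not overlap, with the median of each list as a red bar. The medians of the lists lie between 0.06 and 0.13, and Gpx2, Pir and Akr7a3 lie among the largest differences. The largest, for Akr1b8, which is named after its values were seen, was 1.51 (SE 1.05) with overlapping groups.

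Among markers of other cells, 3 red cell markers and 1 neutrophil marker passed the limma test, and none of the other markers counted here did. Of 8 tested red cell markers 7 were higher without overlap, against 11.9% of all rows, and 3 (Alas2, Hba-a3 and Hbb-b1) were called higher, against 0.0497% of all rows. The other marker, Slc4a1, which the collecting duct also expresses, differed by 0.00 (SE 0.17). Hemgn, 1 of the 7 without overlap, read 17.2 on vehicle replicate 1 and was well above background on 5 of the 6 arrays. It entered the test only because its treated arrays were bright enough. The summed scaled intensity of the 8 was 852065 to 998050.0 in treated rats, against 342573 to 421429 in vehicle rats. Since levels are not comparable between probes, the sums given here mostly follow the brightest probes, for the red cell list Hba-a3 and Hbb-b1. Of 3 tested neutrophil markers all were higher without overlap, against 11.9% of all rows. S100a8 passed the test, at a difference of 1.78 (SE 0.16, limma adjusted p = 0.0453), against 0.0497% of all rows called higher. Mpo had no probe matched by accession, and Elane and Cxcr2 were not well above background on any array. With Elane and Cxcr2 included, the neutrophil sums were 1295 to 1396 in treated rats, against 442 to 599.7 in vehicle rats. Of 6 tested macrophage markers 2 were higher and 4 lower on average. With the untested Cd163 included, their sums were 12276 to 17342 in treated rats, against 16305 to 20700.1 in vehicle rats. Of 6 T and NK cell markers all were lower on average with sums that overlap (1805 to 2324 in treated rats, against 2127 to 2324 in vehicle rats). Cd3e, 1 of these 6, read 20.7 on treated replicate 3 and was well above background on 5 of the 6 arrays. It entered the test only because its vehicle arrays were bright enough. Of 6 collecting duct markers 5 were lower on average (174719 to 184210.0 in treated rats, against 189208 to 210077 in vehicle rats), and of 9 proximal tubule markers 7 were higher on average with a median difference of 0.06. The part of these cells in the differences above was not tested, and in bulk cortex fewer cells of a type and less RNA per cell cannot be told apart.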

How the data were processed

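The deposited scanner files hold spot intensities which, per the file headers, Agilent's Feature Extraction 10.7.1.1 made (10.7 in the submitters' processing notes), with the background subtracted and no scaling between arrays. The well-above-background flag of each spot is the software's own, per the file headers. The authors' deposited series matrix holds linear intensities that equal these divided by 1 constant per array, and its columns had medians of 0.109, 0.108 and 0.111 for treated and 0.105, 0.105 and 0.105 for vehicle arrays, which fixes its scale, with no centring and no direction to a 1-colour value.

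Each array held 61537 probes beside 1439 control spots. Probes were named by unversioned accession through a RefSeq table of assembly GRCr8, which named 28206 probes (45.84%). The array design used another build, so probe positions are not given. The log2 intensity, floored at 1, minus the 75th percentile of the array was tested for probes well above background on all 3 arrays of a group, the brightest probe standing for each named gene, which gave 32196 rows. Control spots and 0 to 4 outlier spots per array were left out. Treated and vehicle arrays were set against each other in limma 3.58.1 under R 4.3.3 (two-sided, Benjamini-Hochberg over all rows, threshold 0.05), and the procedure was tested on simulated data. The files hold no mean spot signal, so normexp (offset 50) was run on the median signals instead. Each group had 3 animals per the labels' treatment protocol. The genes of the set and of the lists, and the rule for naming them, were chosen with earlier results of these data known. The rule names all 9 genes, fixed genes of each list, its called genes and the 3 largest differences whose groups do not overlap. Pgd, fixed by that rule, had no probe matched by accession, and 2 other genes that the rule names are not reported here.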

Additional observations from a re-analysis of the deposited data

How the results depend on the processing

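All 8 genes kept a positive difference under each of the 17 alternatives run on them (16 for Gclm). With limma 0 of them were called in each, where 0 to 316 of all rows were called. An unadjusted p under 0.05 was reached by 2 to 5 of the genes. The 5 came without vehicle replicate 3, where 3366 of 32509 rows reached it in either direction. The 2 came without vehicle replicate 1 (3424 of 32628 rows) and without vehicle replicate 2 (3288 of 32492 rows). Adjusted p was lowest at 0.0772, for Gsr with a trended robust variance. The median difference of the genes tested in each ran from 0.33 to 0.77 with 1 array left out, and from 0.38 with the normexp background correction to 0.63 within slide 1 otherwise. Gclm dropped out where every array had to be above background, leaving 7 genes. Slc7a11 came in with no filter on dim probes and without vehicle replicate 1, making 9 genes. It was lower on average in treated rats in both. With every probe as its own row the median was over 14 probes. The count of rows called moved more, from 24 of 32196 to 69 with normexp, 2 with no filter on dim probes, 316 with the trended robust variance, 15 within slide 1, 9 with slide as a block, 0 at an adjusted p threshold of 0.01 and 0 to 15 with 1 array left out, and the cause was not tested. Slide 2 held a single array, so the slide 1 values are those without treated replicate 3. With the replicate block 1 row was called and 0 of the 8 genes. The equal replicate numbers do not pair the animals by the labels, and the deviations of equal-numbered arrays from their group means correlated at -0.01, 0.04 and -0.01. By these deviations, treated replicates 1 and 3 correlated best with a vehicle array of another number. The fit with normexp and the counts of related genes were chosen after seeing the data, and the fit on mean spot signals was not run because the files hold no such column. Dim probes limit Gclm, Slc7a11 and the second Nqo1 and Srxn1 probes.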

Other observations

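Some related genes that missed the threshold passed it under other settings with limma. Over all rows the trended robust variance called 316 of 32196 and normexp 69 of 32196. The filter on every array called 33 of 30643, every probe as its own row 30 of 41218, and slide 1 alone 15 of 32320. Pir was called where every array had to be above background (adjusted p = 0.0468), with normexp (0.0394), with the trended robust variance (0.0129) and, on its probe A_43_P17743 at a log2 difference of 1.41 (SE 0.11), with every probe as its own row (0.0427). Akr7a3 was called with normexp (0.0235), with the trended robust variance (0.0356) and within slide 1 (0.0490, log2 difference 1.15). Tkt (0.0123), Ephx1 (0.0475) and Glrx, which was lower (0.0473), were called with the trended robust variance alone. In the other alternatives run for them these 5 genes were not called.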
